A study of Homo sapiens with 4 samples.

Results

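NF-kB is a family of transcription factors that work as dimers of 5 related subunits. The genes described here are those subunits (NFKB1, NFKB2, REL, RELA, RELB) with a group of inhibitors that restrain the pathway (NFKBIA, NFKBIB, NFKBIE, TNFAIP3). BIRC3, which encodes a ubiquitin ligase of TNF receptor complexes, was placed in the same group. The 10 genes were chosen by symbol, and all 10 were found among the 23459 genes listed in the count files, which give NCBI Gene identifiers. All samples were hTERT RPE-1 cells, a human epithelial line derived from retinal pigment epithelium and immortalized with telomerase, with a wild type genotype. The cells were kept for 48 h in medium with 0.1% serum and then exposed to 200 μM merbarone, a catalytic inhibitor of DNA topoisomerase II, for 4 h (Merb 4 h, 2 libraries) or 8 h (Merb 8 h, 2 libraries). Both groups therefore carry the drug and the starvation, untreated cells were not analysed here, and time on the drug cannot be told apart from time in low serum. The data come from 1 cell line, and RNA levels do not show how much of each protein was made or where in the cell it was.

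In resting cells, NF-kB dimers are held in the cytoplasm by IkB proteins, which mask their nuclear localization signals. Signals from TNF, interleukin and other receptors activate the IKK kinase complex, IkB is phosphorylated and degraded, and the dimers enter the nucleus. NFKBIA, TNFAIP3 and BIRC3, and the subunit genes NFKB1, NFKB2, REL and RELB, are textbook targets of NF-kB itself. The pathway thus rebuilds some of its own inhibitors and subunits. In a slower branch, the kinase encoded by MAP3K14 leads to processing of the NFKB2 precursor, which pairs with RELB.

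The promoters are shown first, since they carry what most of these genes share in sequence. The RefSeq promoter table (GRCh38.p14) has windows of 300 bases, from 250 before a transcription start to 50 after it, for 8 of the 10 genes, and it has none for RELB and NFKBIE. Each window was placed on GRCh37, the assembly that hg19 represents and to which the reads were mapped, by an exact match near the gene. The kB consensus, a motif of 10 bases bound by NF-kB dimers, runs G, G, G, a purine, any pair of bases, a pair of pyrimidines and C, C, and it was searched on both strands. It was present in 8 of the 13 windows of these genes, against 11.3% of all 35116 windows and 13.2% of the 14859 windows of tested genes. By gene, 7 of the 8 had a match, against 13.3% of all 27305 genes with a window and 17.1% of the 10183 tested. RELA was the gene without a match in either of its windows. The members were chosen as NF-kB genes, so this is a description and no test was made.

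The sequences below show one or more matches of each gene with a match, read 5′ to 3′ on the strand of the gene, with the kB match in capitals. Matches on opposite strands that overlap form a single stretch in capitals, and the second TNFAIP3 line overlaps the first.
NFKB1 (chr4:103422457-103422486): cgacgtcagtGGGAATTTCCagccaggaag
NFKB2 (chr10:104154219-104154247): aaacgtcatGGGAATTCCCCcctccgggg
NFKB2 (chr10:104155431-104155460): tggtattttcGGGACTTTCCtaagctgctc
REL (chr2:61108653-61108681): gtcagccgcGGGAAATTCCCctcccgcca
NFKBIA (chr14:35874017-35874046): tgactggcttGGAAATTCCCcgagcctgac
NFKBIB (chr19:39390572-39390600): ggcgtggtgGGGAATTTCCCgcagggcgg
TNFAIP3 (chr6:138188319-138188348): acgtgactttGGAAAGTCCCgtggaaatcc
TNFAIP3 (chr6:138188331-138188360): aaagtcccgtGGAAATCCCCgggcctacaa
BIRC3 (chr11:102188006-102188035): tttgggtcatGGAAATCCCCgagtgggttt
BIRC3 (chr11:102188070-102188099): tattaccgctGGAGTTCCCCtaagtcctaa

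In GENCODE on GRCh37, the matches of NFKB1, NFKBIA, TNFAIP3 and BIRC3 lie outside the annotated gene. The first printed NFKB2 match and the REL match fall in annotated exon sequence of the gene. The second printed NFKB2 match crosses an exon boundary, and the printed NFKBIB match is in an intron. Not printed are NFKB2 matches that begin at −78 (exon) and −176 (intron) and an NFKBIB match that begins at 39 (exon). Counted from the start that their window was built on, the printed matches begin at −49 for NFKB1, −107 and −21 for NFKB2, −47 for REL, −81 for NFKBIA, −28 for NFKBIB, −67 and −55 for TNFAIP3, and −199 and −135 for BIRC3. The window limits these distances. The letters TATAA, the core of the TATA box, were found on either strand in 1 of the 13 windows, that of NFKBIA, against 20.4% of all windows and 11.5% of the windows of tested genes. The genes described below as higher at 8 h and those described as lower both include promoters with a kB match.

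The libraries held between 8064450 and 10324697 counted reads, and the deepest had 1.28 times the reads of the shallowest. Levels are given as CPM, counts scaled to a common library size, with TMM factors that correct for library composition. All 10 genes passed the filter for lowly expressed genes, a CPM above 1 in at least 2 libraries, as did 12559 genes in all. REL had between 32 and 48 reads per library, whereas no other gene of the group had fewer than 252, so REL is the least precisely measured. Of 9 markers of retinal pigment epithelium, MITF and OTX2 were present at 75.5 to 92.5 and 15.9 to 20.6 CPM, PMEL was at most 1.56 CPM, RPE65, BEST1, RLBP1, LRAT and TTR were below 1 CPM in every library and TYR had no read. Regulators of that lineage were thus detected, and the genes of its mature function were at or near 0. Of 8 immune markers only CD68, a lysosomal protein, exceeded 1 CPM, and CD3E and AIF1 had no read. The summed level of the immune list moved with time, through CD68, from 55.5 to 57.8 CPM at 4 h to 71.5 to 76.6 CPM at 8 h, and the summed level of the retinal pigment epithelium list from 94.4 to 100.3 CPM to 106.7 to 115.4 CPM. Their part in the results was not tested. With 2 libraries a time, every p-value rests on a spread shared across genes, and in bulk samples a change in the share of cells and a change in RNA per cell cannot be told apart.

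From 4 h to 8 h, most of the subunit genes rose, and 2 of the inhibitors, NFKBIA and TNFAIP3, fell. With edgeR's quasi-likelihood test and a Benjamini-Hochberg adjusted p below 0.05, 6 of the 10 genes were higher at 8 h (NFKB1, NFKB2, RELA, RELB, NFKBIB and BIRC3), 2 were lower (NFKBIA and TNFAIP3), and 2 did not pass (REL and NFKBIE). Over all genes tested, 38.8% passed, 19.9% higher and 18.8% lower. For every one of the 10 genes, the times did not overlap, with 7 genes above at 8 h and 3 below. Such separation was found for 69.7% of all genes tested (34.8% above and 34.9% below), and says little on its own. The median log2 fold change of the 10 genes was 0.36, against −0.0024 for all genes tested. No gene of the group passed the adjusted p together with the study's fold threshold, an absolute log2 fold change above 1, which 5.33% of the genes tested did. At an unadjusted p below 0.05, 8 of the 10 genes passed, against 47.3% of all genes tested, and limma-voom and DESeq2 also found 0 past the fold threshold.

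**Figure D1:**
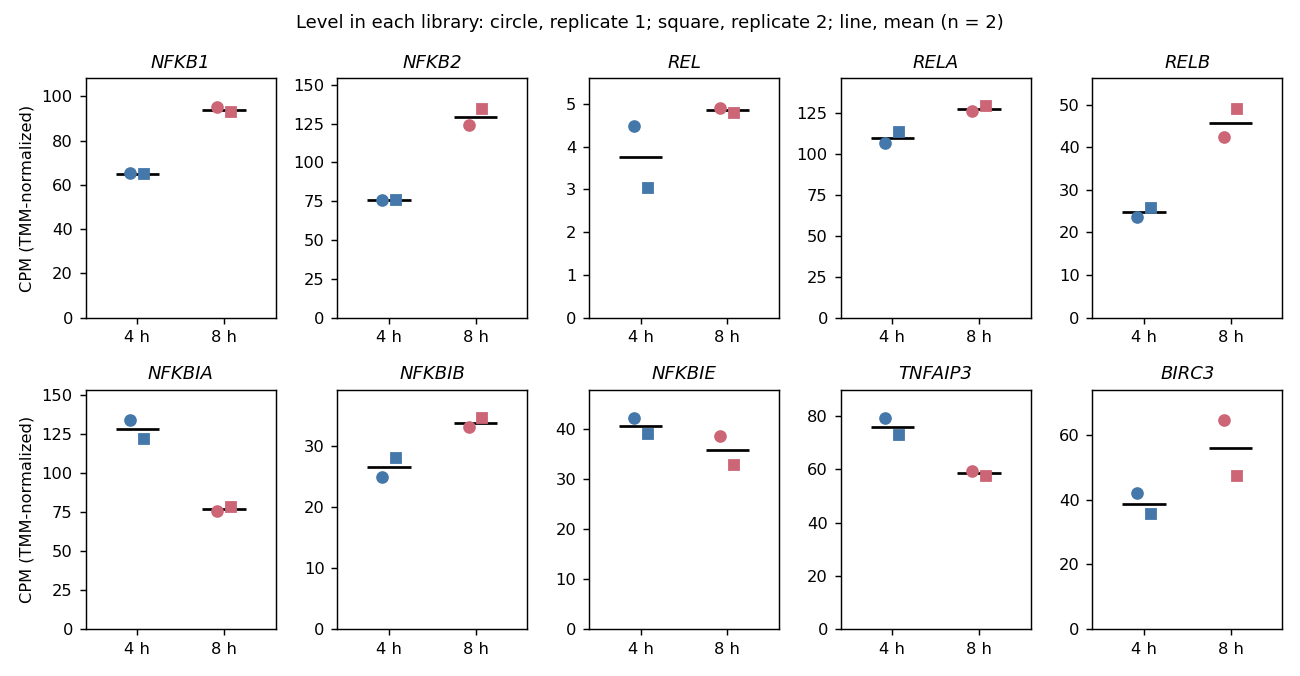
TMM-normalized CPM (vertical axes, from 0) of the 10 genes at 4 h and 8 h, with a circle for replicate 1, a square for replicate 2 and a line for the mean of 2. The 8 h values of NFKBIA (75.5 and 78.2) lie far below its 4 h values (134.1 and 122.1), the values of NFKB2 rise from 76.0 and 75.8 to 124.3 and 134.7, and the replicates of REL at 4 h and of BIRC3 at 8 h are spread widely.

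Among the subunits, RELB rose the most on the log2 scale. RELB, the activating subunit of the slower branch (chromosome 19, 45504719 to 45541450, plus strand, hg19), was at 23.6 and 25.8 CPM at 4 h, against 42.5 and 48.9 CPM at 8 h. Both 8 h libraries were well above both 4 h libraries. Its mean went from 24.7 ± 1.57 to 45.7 ± 4.53 CPM (SD, n = 2 each), with a log2 fold change of 0.88 (standard error 0.12, 95% interval 0.63 to 1.14, edgeR adjusted p = 1.31e-05). This is a rise to 1.84 times the 4 h level, which ranked 318 from the highest among the 12559 genes tested.

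NFKB2 (chromosome 10, 104153867 to 104162281, plus strand), which encodes the precursor that partners RELB, was found at 76.0 and 75.8 CPM at 4 h, against 124.3 and 134.7 CPM at 8 h. The 4 h replicates were almost equal and both 8 h libraries lay far above them. The log2 fold change was 0.77 (standard error 0.09, 95% interval 0.59 to 0.95, edgeR adjusted p = 1.13e-06). NFKB1 (chromosome 4, 103422487 to 103538459, plus strand), which encodes the precursor of the other processed subunit, was at 65.2 and 65.0 CPM at 4 h, against 95.1 and 93.1 CPM at 8 h. The replicates were close at both times and the times did not overlap. Its log2 fold change was 0.53 (standard error 0.09, 95% interval 0.35 to 0.72, edgeR adjusted p = 9.96e-05). The rises of RELB, NFKB2 and NFKB1 passed the test in each alternative scaling, filter and test that was run and with each library left out in turn.

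RELA (chromosome 11, 65421070 to 65430561, minus strand), the main activating subunit in most cell types, moved little. Its exons share 103 bases with RELA-DT, a long noncoding RNA on the opposite strand that was not analysed here. RELA was at 106.3 and 113.0 CPM at 4 h, against 126.0 and 129.2 CPM at 8 h. Its log2 fold change of 0.22 (standard error 0.08, 95% interval 0.05 to 0.39, edgeR adjusted p = 0.0426) was just past the threshold. The call was lost when libraries were scaled by size alone (log2 fold change 0.11, edgeR adjusted p = 0.301), with DESeq2 (adjusted p = 0.122), with the trend with mean level removed (adjusted p = 0.302), with no CPM filter (adjusted p = 0.0558) and without replicate 1 at 4 h (0.303), replicate 2 at 4 h (0.099) or replicate 2 at 8 h (0.0903), all adjusted p-values.

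REL (chromosome 2, 61108626 to 61158747, plus strand), an activating subunit known mainly from lymphoid cells, was detected at a low level. It was at 4.49 and 3.03 CPM at 4 h, against 4.91 and 4.80 CPM at 8 h. The 4 h replicates differed from each other by more than replicate 1 at 4 h differed from either 8 h library. The log2 fold change was 0.37 with a 95% interval from −0.21 to 0.95 (edgeR adjusted p = 0.315), so a change was not detectable at this depth. Its exons also share 5702 bases with a long noncoding RNA on the same strand, which was not analysed here. Taken as a sum, the subunit genes stood at 275.6 and 282.7 CPM at 4 h and between 392.7 and 410.6 CPM at 8 h.

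The IkB genes did not move together. NFKBIA (chromosome 14, 35870285 to 35873955, minus strand), which encodes the IkB protein that NF-kB induces most rapidly, was at 134.1 and 122.1 CPM at 4 h, against 75.5 and 78.2 CPM at 8 h. Both 8 h libraries were far below both 4 h libraries. The mean went from 128.1 ± 8.53 to 76.8 ± 1.85 CPM (SD, n = 2 each), and the gene fell by 0.74 on the log2 scale (standard error 0.09, 95% interval −0.92 to −0.56, edgeR adjusted p = 2.42e-06). The 4 h level was 1.67 times the 8 h level, and the fall ranked 1040 from the lowest among the 12559 genes tested. The fall passed in each alternative that was run, with a log2 fold change between −0.84 and −0.68.

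NFKBIB (chromosome 19, 39390340 to 39399533, plus strand), an IkB gene not among the rapid NF-kB targets, was at 24.9 and 28 CPM at 4 h, against 33.1 and 34.5 CPM at 8 h. It lay higher in both 8 h libraries, opposite in direction to NFKBIA. The log2 fold change of 0.35 (standard error 0.12, 95% interval 0.09 to 0.61, edgeR adjusted p = 0.0298) was lost with library size scaling (adjusted p = 0.123), with DESeq2 (adjusted p = 0.123) and without replicate 1 at 4 h (0.252), replicate 2 at 4 h (0.0583) or replicate 2 at 8 h (0.0741), all adjusted p-values. Its exons share 40 bases with SIRT2 on the opposite strand, whose log2 fold change was 0.26 (edgeR adjusted p = 0.0466), and the use of strand in counting is not given in the sources used here.

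NFKBIE (chromosome 6, 44225903 to 44233525, minus strand), the third IkB gene, was at 42.3 and 39.1 CPM at 4 h, against 38.7 and 32.8 CPM at 8 h. Replicate 1 at 8 h lay just under replicate 2 at 4 h, so the times were barely apart. The log2 fold change was −0.18 with a 95% interval from −0.43 to 0.06 (edgeR adjusted p = 0.228), an interval that leaves out a fall as large as that of NFKBIA. Summed over the 3 IkB genes, the level was between 189.2 and 201.4 CPM at 4 h and between 145.4 and 147.3 CPM at 8 h.

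**Figure D2:**
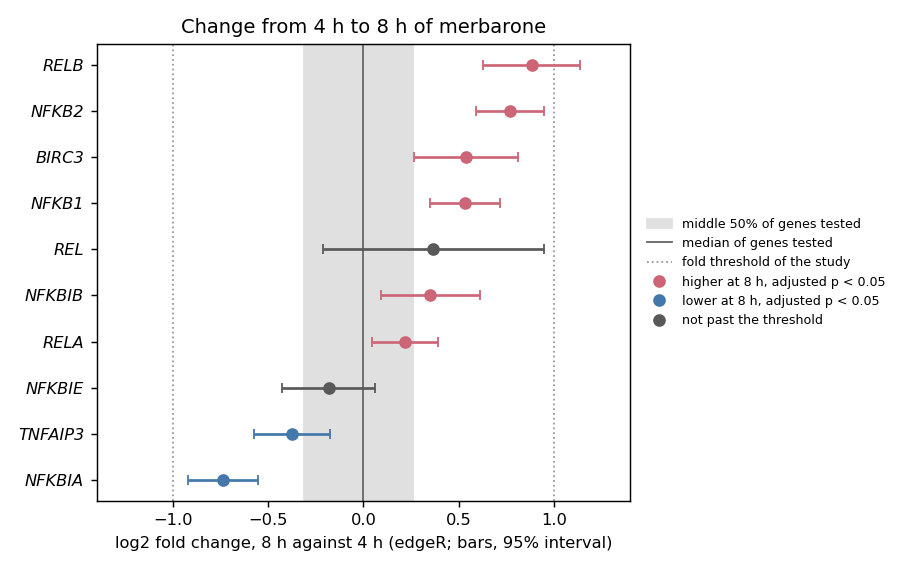
Log2 fold change from 4 h to 8 h (horizontal axis) of each gene with its 95% interval from edgeR, beside the middle 50% of all genes tested (grey band, −0.31 to 0.26) and the fold threshold of the study (dotted lines at −1 and 1). RELB, NFKB2 and NFKB1 have intervals well above the band, NFKBIA has an interval wholly below it, and the interval of REL is the widest of the 10.

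The remaining genes of the group, TNFAIP3 and BIRC3, moved in opposite directions. TNFAIP3 (chromosome 6, 138188351 to 138204451, plus strand), which encodes a ubiquitin-editing enzyme that shuts off signals upstream of IKK, was at 79.2 and 72.8 CPM at 4 h, against 59.4 and 57.7 CPM at 8 h. Both 8 h libraries were lower. It fell by 0.38 on the log2 scale (standard error 0.09, 95% interval −0.57 to −0.18, edgeR adjusted p = 0.00375), and the call was lost without replicate 1 at 4 h (log2 fold change −0.32, adjusted p = 0.0724). Its exons overlap those of the antisense RNA WAKMAR2 by 95 bases, for which at most 4 reads were counted in a library.

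BIRC3 (chromosome 11, 102188215 to 102210134, plus strand), a ubiquitin ligase of TNF receptor complexes, was at 42.1 and 35.5 CPM at 4 h, against 64.6 and 47.4 CPM at 8 h. Exons of BIRC3 share 126 bases with a long noncoding RNA on the opposite strand, which was not analysed here. For BIRC3, both 8 h libraries were higher, but replicate 1 at 8 h was far above replicate 2. The mean went from 38.8 ± 4.71 to 56.0 ± 12.2 CPM (SD, n = 2 each), with a log2 fold change of 0.54 (standard error 0.13, 95% interval 0.26 to 0.81, edgeR adjusted p = 0.00295). Without replicate 1 at 8 h the log2 fold change was 0.29 (edgeR adjusted p = 0.0727), and without replicate 2 at 4 h it was 0.42 (adjusted p = 0.0722). BIRC2, the paralog that starts 7807 bases beyond the end of BIRC3 on the same strand, was at 104.4 and 87.8 CPM at 4 h, against 123.4 and 109.1 CPM at 8 h. It was also higher in replicate 1 than in replicate 2 at both times. Its log2 fold change was 0.28 (edgeR adjusted p = 0.0279), lost with library size scaling (adjusted p = 0.165), with DESeq2 (adjusted p = 0.0828), with the trend with mean level removed (adjusted p = 0.163) and without replicate 2 at 4 h (0.357) or replicate 1 at 8 h (0.146).

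**Figure D3:**
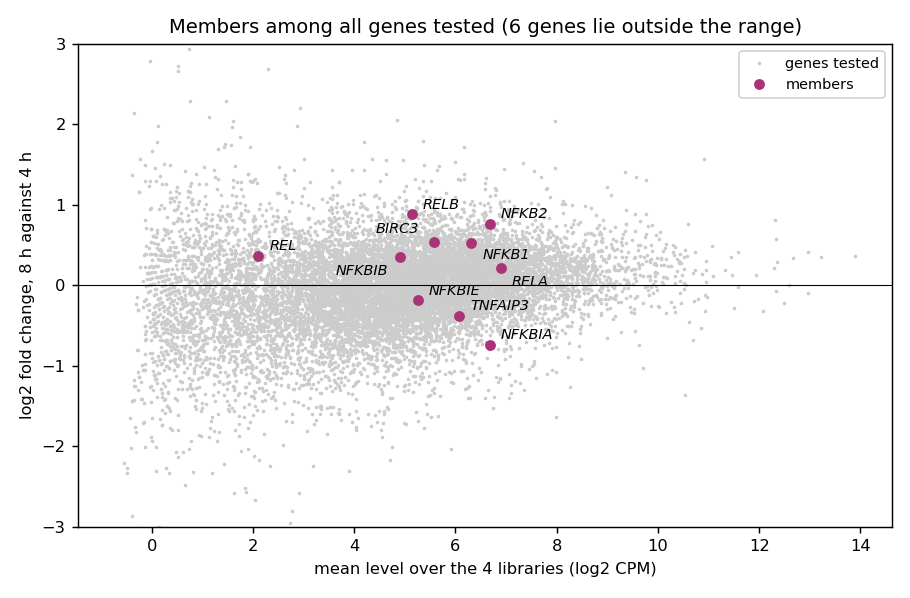
Mean level over the 4 libraries (horizontal axis, log2 CPM) against log2 fold change from 4 h to 8 h (vertical axis) for the 12559 genes tested (grey) and the 10 genes of the NF-kB group (purple). Apart from REL at the low end, the group lies in the well measured middle of the range. RELB and NFKB2 lie toward the upper side of the grey points. NFKBIA lies toward their lower side but among them, with 8.28% of the genes tested at or below its change. In all, 6 genes fall outside the vertical range drawn.

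To compare the genes with each other, levels were divided by the length of the union of exons (GENCODE on GRCh37), which gives CPM per kilobase. At 4 h NFKBIA was the most abundant of the 10, at 39.5 and 36.0 CPM per kilobase, followed by RELA at 19.5 and 20.7. At 8 h the order at the top was gone, with RELA at 23.1 and 23.7, NFKB2 at 22.3 and 24.1 and NFKBIA at 22.3 and 23.0 CPM per kilobase. The range of NFKB2 overlapped those of RELA and NFKBIA, while both RELA values lay just above both NFKBIA values. Below them at 8 h came RELB (14.2 and 16.3), NFKBIB (14.2 and 14.8) and NFKBIE (15.0 and 12.7), whose ranges also overlap, then TNFAIP3 (9.22 and 8.95), BIRC3 (8.64 and 6.34) and NFKB1 (6.06 and 5.94). REL was the lowest at both times, at most at 0.286 CPM per kilobase. With the longest transcript in place of the union of exons, NFKBIA was still the highest at 4 h (52.4 and 47.7) and REL the lowest. The level of NFKB1 then more than doubled, to 13.5 and 13.2 CPM per kilobase at 8 h, above TNFAIP3 at 10.9 and 10.6, so the places of NFKB1 and TNFAIP3 depend on the transcript assumed. At 8 h RELA (39.6 and 40.6) and NFKB2 (36.4 and 39.5) were then above NFKBIA (29.5 and 30.5) with no overlap.

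Ratios within a library do not depend on how the libraries are scaled. NFKBIA counts, divided by counts of RELA, the subunit that its protein binds, gave 1.26 and 1.08 at 4 h but 0.599 and 0.605 at 8 h. The 8 h libraries agree closely and lie far below both 4 h libraries, and the difference of the mean log2 ratios was −0.96. The ratio of RELB to RELA was 0.222 and 0.228 at 4 h, against 0.337 and 0.378 at 8 h, a log2 difference of 0.67. The ratio of NFKB2 to NFKB1 went from 1.17 in both 4 h libraries to 1.31 and 1.45, a log2 difference of 0.24.

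Among the inhibitors, the ratio of NFKBIB to NFKBIA was 0.186 and 0.229 at 4 h, against 0.438 and 0.441 at 8 h, a log2 difference of 1.09. The ratio of NFKBIE to NFKBIA was 0.315 and 0.321 at 4 h, against 0.513 and 0.420 at 8 h. The ratio of BIRC3 to BIRC2 was 0.404 in both 4 h libraries, against 0.524 and 0.435 at 8 h, so the 4 h libraries, which differed in both genes, did not differ in their ratio. The ratio of REL to RELA overlapped between the times, from 0.0268 to 0.0423 at 4 h against 0.0371 and 0.0390 at 8 h. In 6 of these 7 pairs the times did not overlap, but several pairs share NFKBIA or RELA and are not separate evidence. Among single genes tested 69.7% showed such separation, and the share among gene pairs was not computed. An exact permutation test of 2 libraries against 2 cannot give a two-sided p below 0.333, which it gave for those 6 pairs (0.389 after Benjamini-Hochberg adjustment over the 7 pairs), so none could pass.

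**Figure D4:**
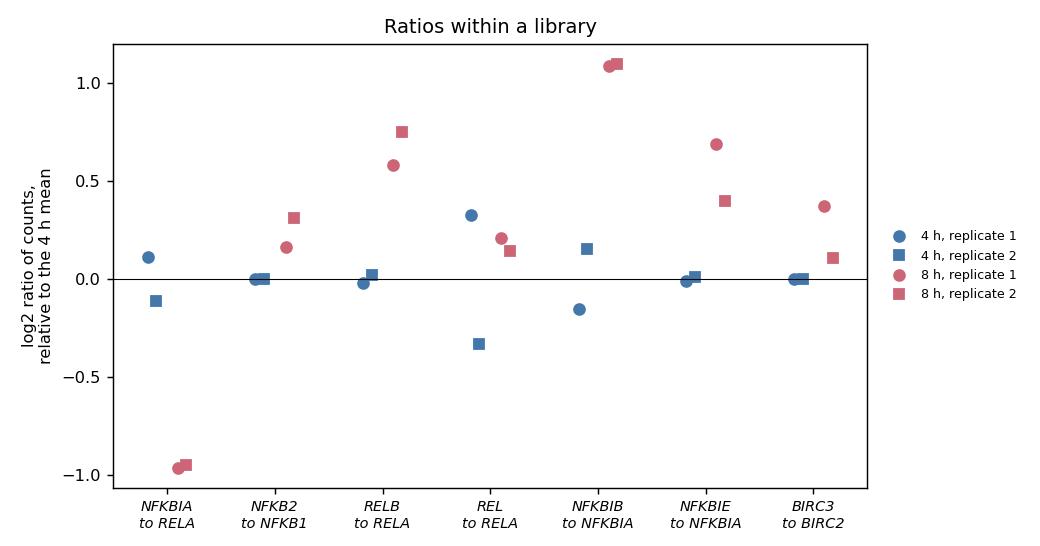
Log2 ratio of the counts of each pair of genes in each library, relative to the mean of the 4 h libraries (vertical axis), with blue for 4 h, red for 8 h, circles for replicate 1 and squares for replicate 2. The 8 h libraries lie about 1 log2 unit lower for NFKBIA to RELA and 1.09 higher for NFKBIB to NFKBIA, and only the pair REL to RELA overlaps between the times.

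Genes in the rest of the pathway were called in both directions, and the share called lower was near that of all genes tested. Of 92 genes in 6 lists by role, 79 passed the filter, and 30 were higher and 15 lower at 8 h with edgeR at an adjusted p below 0.05, against 19.9% and 18.8% of all genes tested. With library size scaling, which moves the median log2 fold change of all genes from −0.0024 to −0.11, the split was 17 higher and 21 lower, against 13.5% and 26.2% of all genes at that scaling. The median log2 fold change of the 79 genes was 0.16. The lists are described by their counts, without a test of the list.

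Negative regulators other than the inhibitors above were the list with the most uniform direction. Of 12 that passed the filter, 10 were higher (83.3%), 0 were lower and 2 did not pass, with a median log2 fold change of 0.31. Over all genes tested, 19.9% were higher and 18.8% lower. TNIP1, which binds and assists the TNFAIP3 enzyme, was at 108.3 and 112.6 CPM at 4 h, against 200.5 and 176.1 CPM at 8 h (log2 fold change 0.77, edgeR adjusted p = 9.85e-07). CYLD, a deubiquitinase that removes the chains that activate IKK, was at 135.4 and 128.1 CPM and then at 200.9 and 192.7 CPM (log2 fold change 0.58, edgeR adjusted p = 1.29e-05). OTULIN, a deubiquitinase of linear chains, had a log2 fold change of 0.53 (edgeR adjusted p = 0.00107). ZC3H12A, an RNase that degrades inflammatory messages, had a log2 fold change of 0.53 (edgeR adjusted p = 0.033), which was lost with library size scaling (adjusted p = 0.0789), DESeq2 (adjusted p = 0.115) and without replicate 2 at 4 h (0.294) or replicate 2 at 8 h (0.219). Thus TNFAIP3 was lower while its partner TNIP1 was higher, both without overlap between the times. The number of these regulators called higher was 4 of 12 with library size scaling, 6 with DESeq2 and between 3 and 9 with a library left out, the lowest without replicate 2 at 4 h, and none was called lower in any of these. Of all genes, 13.5% were higher with library size scaling, 14.3% with DESeq2, and between 12.8% and 20.2% with a library left out, with 12.9% without replicate 2 at 4 h.

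The list of the IKK complex, the kinases that act on it and their TAB adaptors had more members lower than higher. Of 11 genes, 2 were higher (18.2%), 4 were lower (36.4%) and 5 did not pass, with a median log2 fold change of −0.21. Over all genes tested, 19.9% were higher and 18.8% lower. IKBKB, the IKK subunit that phosphorylates IkB in the fast branch, was at 80.9 and 82.6 CPM at 4 h. At 8 h it was at 55.8 and 59.0 CPM (log2 fold change −0.51, edgeR adjusted p = 0.000236). IKBKE had the largest fall in the list (log2 fold change −1.22, edgeR adjusted p = 0.000253), past the fold threshold of the study. MAP3K8 also fell (log2 fold change −0.62, edgeR adjusted p = 0.0224). Both averaged fewer than 100 normalized counts at each time and were not followed through the alternatives. MAP3K14, the kinase of the slower branch, was at 32.1 and 35.7 CPM and then at 25.1 and 27.9 CPM (log2 fold change −0.36, edgeR adjusted p = 0.0286), a call lost with DESeq2 (adjusted p = 0.126) and without replicate 1 at 4 h (0.0542), replicate 2 at 4 h (0.234) or replicate 1 at 8 h (0.131). The adaptors TAB2 and TAB3, which link the kinase MAP3K7 to ubiquitin chains, had log2 fold changes of 0.27 and 0.33 (edgeR adjusted p = 0.00932 and 0.0206). Neither passed with library size scaling (adjusted p = 0.0996 and 0.109) or without replicate 2 at 4 h (0.138 and 0.181), TAB2 did not pass with the trend with mean level removed (log2 fold change 0.15, adjusted p = 0.134), and TAB3 did not pass with DESeq2 (0.0888) or without replicate 1 at 4 h (0.0563). The list had 0 higher and 6 lower with library size scaling, where 26.2% of all genes were lower, and 1 higher and 2 lower with DESeq2, where 12% were lower. With a library left out, the median log2 fold change of the list was between −0.33 and −0.19. Without either 4 h library, fewer of the list were called in each direction, and fewer of all genes tested as well. The number lower was smaller without replicate 1 at 8 h and larger without replicate 2 at 8 h.

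Of 19 adaptors and ubiquitin ligases, 4 were higher (21.1%), 3 were lower (15.8%) and 12 did not pass. These shares were near those of all genes tested, 19.9% higher and 18.8% lower. TRAF5, an adaptor of TNF family receptors, was at 30.2 and 28.9 CPM at 4 h, against 14.3 and 10.9 CPM at 8 h (log2 fold change −1.22, edgeR adjusted p = 5.22e-06) and was past the fold threshold of the study. The scaffold CARD10 and the Toll-like receptor adaptor MYD88 had log2 fold changes of −0.64 and −0.60 (edgeR adjusted p = 0.00295 and 0.00595), and both calls were lost without replicate 2 at 4 h (0.077 and 0.0745). The interleukin receptor kinase IRAK2 had a log2 fold change of 0.52 (edgeR adjusted p = 0.00078). BCL3 and NFKBIZ, which encode nuclear IkB proteins, did not pass, with log2 fold changes of 0.18 and −0.16 (edgeR adjusted p = 0.368 and 0.354).

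Of 18 ligands and receptors, 13 passed the filter. Of these, 4 were higher (30.8%) and 2 lower (15.4%), against 19.9% and 18.8% of all genes tested. TNF, LTB, TNFSF11 and CD40 had no read in any library, which allows up to 0.281 to 0.389 CPM per library (3 reads, counting error only). IL1B, the interleukin 1 beta gene, was at 34.3 and 30.3 CPM at 4 h, against 58.8 and 56.2 CPM at 8 h (log2 fold change 0.83, edgeR adjusted p = 7.48e-06). IL1RAP, the accessory chain of the interleukin 1 receptor, had a log2 fold change of 0.60 (edgeR adjusted p = 0.000119), and LTBR, the receptor that feeds the slower branch, one of 0.44 (edgeR adjusted p = 0.0005). TNFRSF11A, the receptor for TNFSF11, had a log2 fold change of −0.48 (edgeR adjusted p = 0.0139), lost with DESeq2 (adjusted p = 0.0747) and without replicate 1 (0.112) or replicate 2 (0.0574) at 4 h. TNF, the classic ligand of the fast branch, was thus not detected at this depth, whereas IL1B was.

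Textbook target genes were split. Of 28, 22 passed the filter. Of these, 10 were higher (45.5%), 6 were lower (27.3%) and 6 did not pass, against 19.9% and 18.8% of all genes tested. IL6, an inflammatory cytokine, was at 11.4 and 13.7 CPM at 4 h, against 35 and 39.0 CPM at 8 h (log2 fold change 1.55, edgeR adjusted p = 1.17e-07). CCL2, a monocyte chemokine, was at 63.3 and 51.7 CPM at 4 h but 28.5 CPM in both 8 h libraries (log2 fold change −1.01, edgeR adjusted p = 2.23e-06). BCL2L1, an inhibitor of apoptosis, had a log2 fold change of 0.94 (edgeR adjusted p = 6.39e-09). CXCL3 went from 3.0 and 2.93 CPM to 13.8 and 9.46 CPM (log2 fold change 1.98, edgeR adjusted p = 5.27e-06). That value is uncertain, since the 4 h libraries held 32 and 31 reads and the 8 h libraries were apart. Reads that fit similar chemokine genes equally well were discarded, and what this did to the value was not tested.

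**Figure D5:**
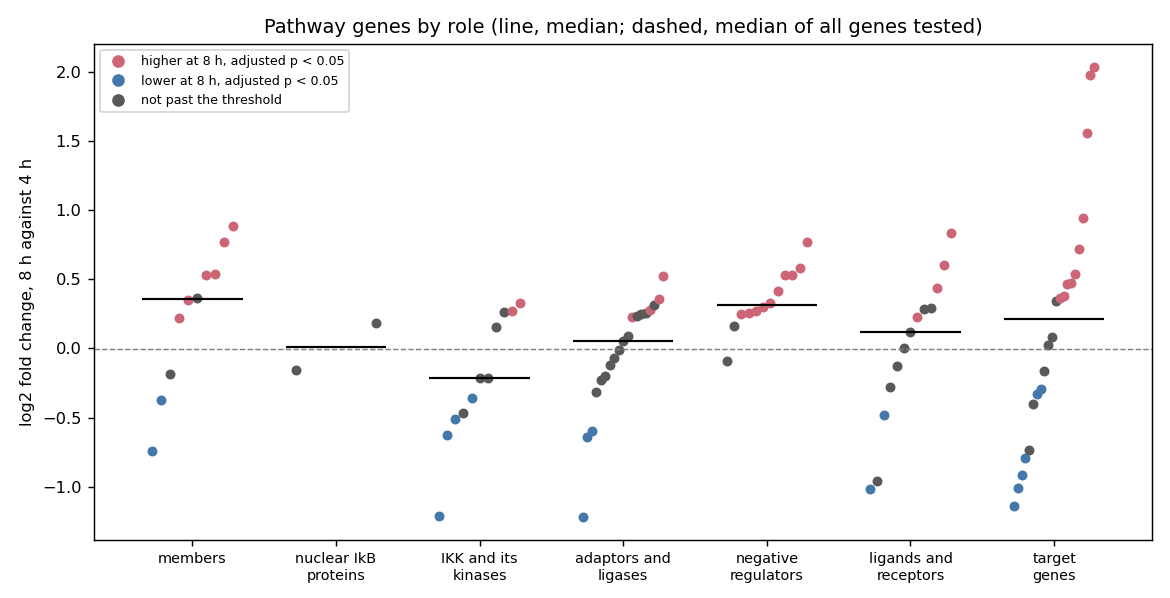
Log2 fold change from 4 h to 8 h (vertical axis) of the 10 genes and of the 79 other pathway genes that passed the filter, each a point, grouped by role, with the median of each group as a line and the median of all genes tested as a dashed line. The 12 negative regulators lie almost all above the dashed line, 10 of them called higher, while the IKK group has its median at −0.21 and the targets spread from −1.14 to 2.04.

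Over the 4 libraries, the genes with the most similar course were sought among the 9379 whose normalized count averaged 100 or more, by the Euclidean distance between log2 levels centred on each gene's mean. For RELB they were FAT4, NOPCHAP1 and SEC24A (distances 0.0274, 0.051 and 0.067). For NFKB2 they were ABCA1, ACBD3 and DCP1B (distances 0.014, 0.0165 and 0.0344), and for NFKBIA they were IGF2BP3, ZFP62 and DOLPP1 (distances 0.0337, 0.0422 and 0.0471). None of these 9 genes belongs to the lists used here, and with 4 libraries such likeness says little beyond a similar step between the times.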

How the data were processed

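Total RNA was isolated from RPE-1 cells (4 samples) and sequenced after a stranded mRNA library preparation. After a quality check in FASTQC, the authors aligned the reads to hg19 using Bowtie (version 1.2.0 in the submitters' processing notes), kept reads with a single position, and deposited raw counts per gene, unnormalized and with replicates kept apart. The counting tool, annotation and use of strand are not given in the sources used here. Bowtie does not split reads, so those that span exons are lost, as are reads that fit near-identical copies equally well. Nothing in the labels says that the replicates were separate cultures, although the paper calls them biological, so p-values measure the spread between these libraries.

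From the counts, 12559 of 23459 genes had CPM over 1 in 2 or more libraries and were tested. TMM factors scaled the libraries, and the times were compared by edgeR's quasi-likelihood test (edgeR 4.0.16, R 4.3.3) with time as the only term. P-values were adjusted over all kept genes. The standard error is the log2 fold change divided by the square root of F. Alternatives were limma-voom (limma 3.58.1), DESeq2 1.42.0, library size alone, RLE factors, other filters, a replicate block and leaving out each library. Removing each library's trend with mean log2-CPM was added after seeing the data. With a library left out, the lone library of its time is assumed to vary like the others. The test was tried on simulated counts.

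Symbols came from the RefSeq table (23304 genes matched), positions and lengths from GENCODE on GRCh37, and promoters from RefSeq. Protein sequences were not analysed here. All 10 members are named, with BIRC2 as the partner of BIRC3 and, from each list, the 4 genes with the largest absolute log2 fold change among those past the adjusted p whose normalized count averaged 100 or more at the time with the higher level, and the 3 genes nearest to each of the 3 members that changed most. TNIP3, CXCL10 and CCL5 had no read. Genes named only for a count, a marker or an overlap fall outside this rule, as do IKBKE, MAP3K8, BCL3 and NFKBIZ. The members and lists were chosen with earlier results of these data known.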

Additional observations from a re-analysis of the deposited data

How the results depend on the processing

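No member changed direction under an alternative test, scaling or filter or with a library left out. The same held for BIRC2 and for the pathway genes named by the stated rule. BCL3, NFKBIZ, IKBKE and MAP3K8 were not followed through these alternatives. Of the comparisons of the 10 members under 8 alternative settings, 74 kept their side of the threshold and 6 lost the call, all for RELA and NFKBIB. With a library left out, 31 kept it and 9 lost it, for RELA, NFKBIB, TNFAIP3 and BIRC3. The members called higher numbered 6 with edgeR, where 19.9% of all genes were higher, and 4 with library size alone (13.5%). They numbered 4 with DESeq2 (14.3%) and 5 with the trend with mean level removed (18.1%), a setting chosen after seeing the data. Members called lower numbered 2 in each, where 18.8%, 26.2%, 12% and 18.4% of all genes were lower. With a fold threshold both numbers were 0 in edgeR, where 5.33% of all genes tested passed. With a library left out, between 3 and 5 members were higher and between 1 and 2 lower, the lowest without replicate 2 and replicate 1 at 4 h. Of the pathway genes, 17 were higher with library size alone in place of 30, and 9 were lower with DESeq2 in place of 15. Over all genes, 1698 were higher with library size alone in place of 2500, and 1503 were lower with DESeq2 in place of 2367. With a library left out, between 16 and 27 were higher and between 8 and 15 lower, the lowest numbers without replicate 2 at 4 h. Leaving out replicate 1 or replicate 2 at 4 h also left fewer of all genes tested called in each direction. The lowest numbers of members and of pathway genes were therefore not particular to them. The causes were not tested. With a replicate block, 6 members were higher and 2 lower, and 32 and 16 pathway genes, against 22.5% and 21.2% of all genes. Deviations of same-numbered libraries had a correlation of 0.05 across genes, so the numbers were not taken as pairs. With a library left out, the log2 difference of the ratio REL to RELA ran from −0.15 to 0.51, turning its sign without replicate 2 at 4 h. REL, with at most 48 reads, is limited by depth.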
